A study of Mus musculus with 6 samples.

Results

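The SLC25 family of mitochondrial solute carriers was examined in cold-stimulated inguinal white adipose tissue. Its members were taken as every row of the expression tables whose gene symbol begins with Slc25a and a number, without regard to the measured differences. The tables held 44 such rows among 17342 named genes. Of these, 35 had a mean of at least 1 FPKM over the 6 libraries and are described in full, and 9 lay below that level. FPKM is the number of sequenced fragments scaled to transcript length and library total, so levels can be set side by side between genes.

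Inguinal fat is a subcutaneous depot in which the cold brings out heat-producing beige adipocytes. The libraries came from 8-week-old C57BL/6 mice, 3 libraries from wild-type (WT) mice and 3 from Rarres2-/- mice, all of them after cold. Rarres2 encodes chemerin, a protein secreted by adipocytes, and the labels state neither the stretch deleted, nor the sex of the mice, nor how cold or how long the exposure was. The comparison asks how fat without chemerin differs from WT fat in the cold. Replicate numbers 1 to 3 belong to WT libraries and 4 to 6 to Rarres2-/- libraries. Nothing in the labels says that each came from a separate animal, so the p-values measure the spread between these libraries, which may be technical. In a whole depot, fewer cells of a type and less RNA per cell cannot be told apart.

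SLC25 proteins sit, with few exceptions, in the inner mitochondrial membrane, which lets few solutes pass unaided. They exchange nucleotides, phosphate, carboxylates, amino acids, acylcarnitines and cofactors between the matrix and the cytosol. In fat they bring fuel to the respiratory chain, export citrate for fatty acid synthesis and return ATP to the cytosol. The uncoupling protein of brown fat, Ucp1, belongs to the same protein family but carries another symbol and falls outside the symbol rule.

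Rarres2 itself was at 517 ± 87.5 FPKM in the WT libraries, against 2.67 ± 3.23 FPKM in the Rarres2-/- libraries (SD, n = 3 each). WT replicate 1 stood apart in the share of its FPKM sum taken by 1 small RNA gene (62.1%), and its depth, read from the spacing of the lowest values, was 0.497 times that of WT replicate 2. The other 4 libraries lay between 0.702 and 1.01 times WT replicate 2, and the absolute depth is unknown. All 7 adipocyte markers were detected. Their summed level, most of it Fabp4, was 38387 to 47127 FPKM in the WT libraries. It was 28462 FPKM in Rarres2-/- replicate 4, and 56679 and 57875 FPKM in replicates 5 and 6. Of the 7 markers, 3 (Plin1, Cidec and Lipe) did not overlap between genotypes and lay higher in Rarres2-/-. The same held for 5.81% of all 11086 tested genes. Adipoq, Fabp4, Lep and Pparg overlapped. Their log2(FPKM + 1) differences, Rarres2-/- minus WT, were 0.05, 0.04, 0.26 and -0.32. Skeletal muscle markers summed to 1761 FPKM in WT replicate 1 and 224 to 616 FPKM elsewhere, and macrophage markers to 319 FPKM there and 635 to 1395 FPKM elsewhere. Endothelial markers summed to 225 FPKM in WT replicate 1 and 144 FPKM in Rarres2-/- replicate 4, against 40.3 to 46.6 FPKM in the other libraries. Epithelial markers summed to no more than 1.40 FPKM in any library.

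Carrier levels spanned a wide range. The citrate carrier Slc25a1 led with a mean of 831 FPKM over the 6 libraries, followed by the adenine nucleotide carrier Slc25a5 at 482 FPKM, the phosphate carrier Slc25a3 at 336 FPKM and the second adenine nucleotide carrier Slc25a4 at 318 FPKM. These 4 genes held 64.1% to 71.3% of the family's summed FPKM in each library. The members with the lowest kept means were Slc25a47 at 1.84 FPKM and Slc25a48 at 1.45 FPKM. By limma, which fits each gene's log2(FPKM + 1) and shares the spread across genes, 0 of the 35 members had an adjusted p under 0.05, as for 0% of all 11086 tested genes. The smallest adjusted p of a member was 0.999. Rarres2 itself was not called at this threshold either, with a log2 difference of -7.51 and an adjusted p of 0.0597 by limma. The 0 calls therefore do not show that the carriers were unchanged.

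At an unadjusted p under 0.05 there were 2 members, Slc25a48 and Slc25a40, both with higher means in Rarres2-/-. Over all tested genes, 2.2% met that limit with a higher mean and 1.73% with a lower mean. The difference was above 0 in 27 of 35 members and in 48.6% of all tested genes, with a median of 0.15 for the members and -0.01 for all tested genes on the log2 scale. That median was -0.02 without Rarres2-/- replicate 6, with 17 of 35 members above 0, and 0.05 without Rarres2-/- replicate 5. The groups did not overlap in 4 members, all higher in Rarres2-/- (Slc25a16, Slc25a26, Slc25a40 and Slc25a48), where 5.81% of all tested genes lay fully higher and 4.53% fully lower. Slc25a48 had a WT mean under 1 FPKM and was kept only through its Rarres2-/- values, so its place in these counts is partly set by the filter.

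**Figure D1:**
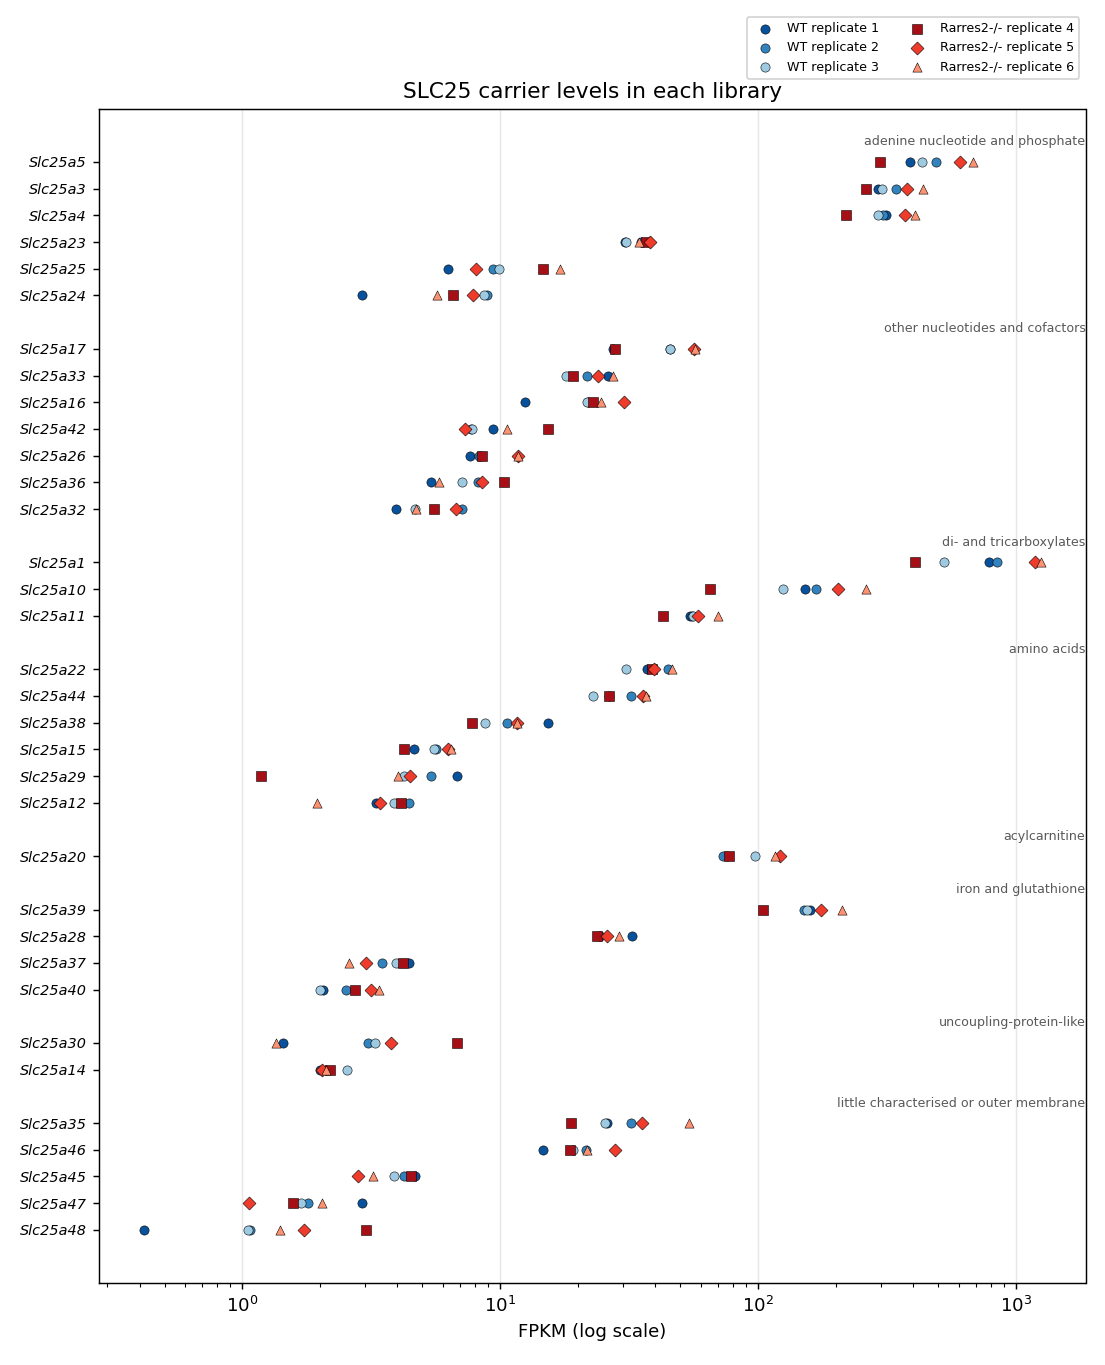
FPKM (log axis) of 34 kept SLC25 genes, 1 point per library, grouped by what each carrier transports; WT libraries are blue circles and Rarres2-/- libraries red symbols. In the most abundant genes Rarres2-/- replicate 4 (dark red square) lies at the low end and replicates 5 and 6 at the high end, with the WT libraries between, as for Slc25a1 from 406 to 1247 FPKM.

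Some of the carriers, 7 of the 8 most abundant among them, had Rarres2-/- libraries on both sides of WT. In 9 of 35 members (25.7%) Rarres2-/- replicate 4 lay below all WT libraries while replicates 5 and 6 lay above all of them, a pattern found in 9.46% of all tested genes. These were Slc25a1, Slc25a3, Slc25a4, Slc25a5, Slc25a10, Slc25a11, Slc25a15, Slc25a35 and Slc25a39. It was described after the values were seen and carries no test. Among 23 nuclear genes of the respiratory chain, used as a measure of mitochondrial transcripts, 13 showed the same pattern. The median respiratory chain gene was at 0.594 times the WT mean in Rarres2-/- replicate 4, and at 1.18 and 1.46 times in replicates 5 and 6. The family's summed FPKM was 1847 in Rarres2-/- replicate 4, 2348 to 2846 in WT, and 3558 and 3928 in Rarres2-/- replicates 5 and 6.

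**Figure D2:**
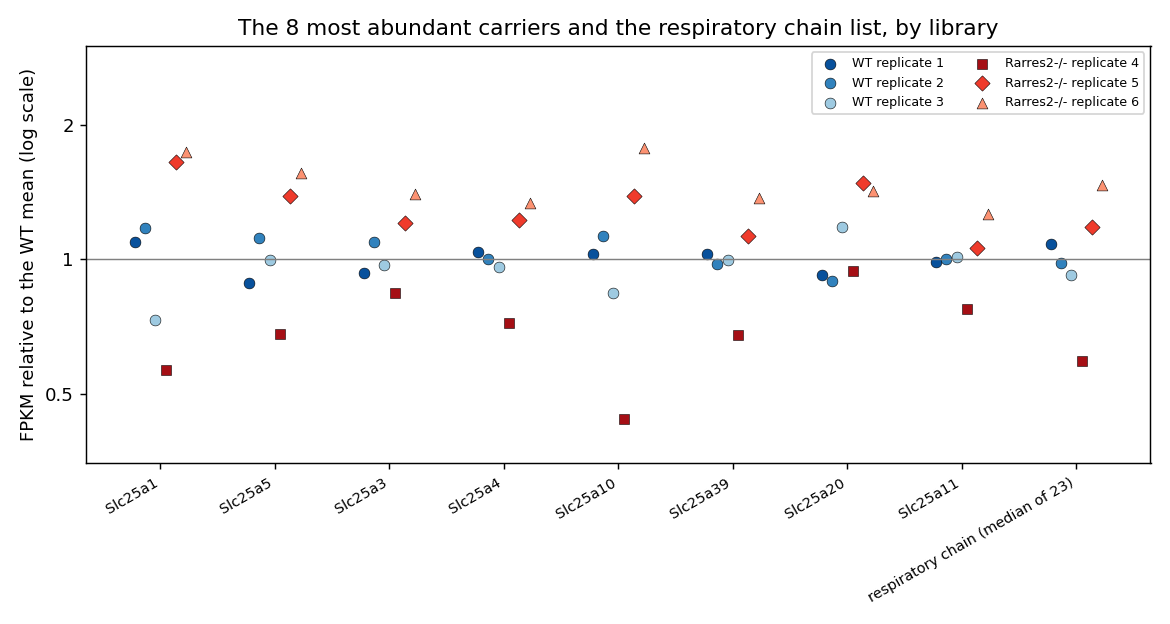
FPKM of the 8 most abundant carriers, and of the median respiratory chain gene, divided by the WT mean (log axis, 1 point per library). Slc25a10 was at 0.440 times the WT mean in Rarres2-/- replicate 4 and 1.78 times in replicate 6, and the other carriers also have replicate 4 lowest of the Rarres2-/- libraries, with Slc25a20 the one carrier where it lies among WT.

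Transcript length moved with the deviations of Rarres2-/- replicates 4 and 6, and not with those of replicate 5. Across 10485 tested genes with a known length, the Spearman correlation between length and a gene's deviation from its mean over the 6 libraries was 0.42 in Rarres2-/- replicate 4 and -0.35 in replicate 6. In the other 4 libraries it lay between -0.12 and -0.02, with replicate 5 at -0.02. Over the 35 carriers the same correlations were 0.60 in Rarres2-/- replicate 4, -0.42 in replicate 6 and -0.16 in replicate 5, and -0.29, 0.16 and 0.03 in WT replicates 1, 2 and 3, points that share 1 library each. Of the 18 carriers with a mean of at least 20 FPKM, a level chosen after the values were seen, the median longest transcript was 2682 bases, and of the 17 below it 3588 bases. With the length trend of each library removed, 8 of 35 carriers (22.9%) and 7.19% of all genes with a length still had replicate 4 below and replicates 5 and 6 above WT. The median deviation of these 18 carriers in replicate 4 was then -0.24 on the log2 scale, against -0.35 before. The part of transcript length in the rest of the split was not tested.

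**Figure D3:**
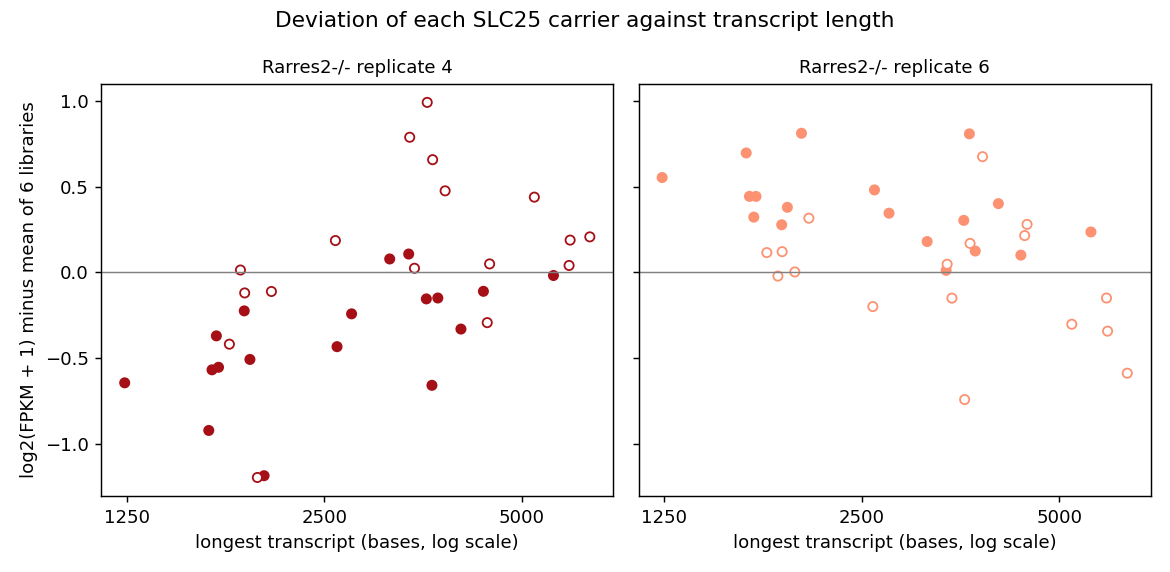
Deviation of each kept carrier from its mean over the 6 libraries (log2(FPKM + 1) units) against its longest transcript (bases, log axis) in Rarres2-/- replicates 4 and 6; filled points have a mean of at least 20 FPKM. Short transcripts lie mostly below 0 in replicate 4 and above 0 in replicate 6 (Spearman correlations of 0.60 and -0.42 across the 35 genes).

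Promoter windows of RefSeq (GRCm38.p6, the assembly that mm10 stands for), from 250 bases before to 50 bases after each start, were matched for 28 of the 35 members. The letters CCGGAAG, the core bound by the ETS-family factor GABP, which is known for nuclear genes of mitochondria, stood on either strand in 16.7% of 36 member windows and 8.86% of all 32851 windows. The motif of NRF1 was in 2.78% of member windows and 4.6% of all, the estrogen-related receptor half-site AAGGTCA in 0% and 4.72%, and the cAMP response element TGACGTCA in 5.56% and 1.79%. The windows of all genes were not limited to genes of at least 1 FPKM, as the members were, so the shares are not like for like. The member shares rest on 6 windows for the GABP letters, 2 for the cAMP response element and 1 for NRF1. That NRF1 match begins at position -214 from the start of Slc25a3. It lies within the stretch printed below and is not capitalized there. Overlap between motifs was not counted, and a match of letters is a description only. Below are 100-base stretches before the start of 3 abundant carriers that hold the GABP letters, and of Slc25a25, whose upstream window for 1 of its 3 starts holds the cAMP response element, each 5′ to 3′ on the gene's strand with those letters in capitals. The stretches are chr10:91124089-91124188 (minus strand) for Slc25a3, chr8:46211139-46211238 (minus) for Slc25a4, chr9:108662011-108662110 (plus) for Slc25a20 and chr2:32424163-32424262 (minus) for Slc25a25.
Slc25a3: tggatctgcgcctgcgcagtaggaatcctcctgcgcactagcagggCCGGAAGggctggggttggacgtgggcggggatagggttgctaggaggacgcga
Slc25a4: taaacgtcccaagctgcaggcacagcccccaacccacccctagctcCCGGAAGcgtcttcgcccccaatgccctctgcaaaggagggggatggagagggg
Slc25a20: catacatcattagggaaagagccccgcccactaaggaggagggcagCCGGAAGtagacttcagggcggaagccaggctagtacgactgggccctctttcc
Slc25a25: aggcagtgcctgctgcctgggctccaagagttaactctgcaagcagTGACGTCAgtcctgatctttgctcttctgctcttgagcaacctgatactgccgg
Of these 4 genes, Slc25a3 and Slc25a4 had the split described above, Slc25a20 lacked the low value in Rarres2-/- replicate 4, and Slc25a25 was high there. Slc25a1, Slc25a5, Slc25a10, Slc25a11, Slc25a15 and Slc25a39 had the split with no GABP letters in their windows. Slc25a17, Slc25a38 and a further start of Slc25a25 held those letters without the split. A link between the letters and the split was not tested.

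The group of adenine nucleotide and phosphate carriers includes Slc25a3, Slc25a4 and Slc25a5, which supply the ATP synthase and export its product. All 6 kept members had a difference above 0, with a median of 0.18, and 0 passed the test; that of Slc25a4, Slc25a5 and Slc25a24 fell below 0 with 1 library left out, and that of Slc25a24 and Slc25a25 with array weights. Slc25a5 (ANT2, chromosome X, 36795597 to 36798808), which exchanges ADP for ATP, was at 387, 488 and 434 FPKM in the WT libraries, against 297, 605 and 682 FPKM in the Rarres2-/- libraries. Its Rarres2-/- libraries lay on both sides of WT, and the log2 difference of 0.19 (SE 0.340) ran from -0.03 without replicate 6 to 0.56 without replicate 4. RefSeq also holds a pseudogene of Slc25a5, and the labels do not say how reads shared with it were assigned. Slc25a4 (ANT1, chromosome 8, 46207168 to 46211062), the form that muscle uses most, was at 315, 305 and 291 FPKM in the WT libraries, against 219, 371 and 406 FPKM in the Rarres2-/- libraries. WT replicate 1, with the highest muscle markers, was only slightly above the other WT libraries, and the log2 difference of 0.08 (SE 0.267) ran from -0.09 without Rarres2-/- replicate 6 to 0.36 without replicate 4. The ratio of Slc25a5 to Slc25a4 was 1.44 ± 0.191 in WT and 1.55 ± 0.175 in Rarres2-/- (SD, n = 3 each), a difference within the spread.

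Slc25a3 (chromosome 10, 91116574 to 91124046), which brings in phosphate for ATP synthesis, was at 292, 343 and 304 FPKM in the WT libraries, against 263, 378 and 437 FPKM in the Rarres2-/- libraries. The log2 difference was 0.17 (SE 0.237), with the Rarres2-/- libraries again on both sides of WT, and it was 0.02 without replicate 6 and 0.38 without replicate 4. Slc25a25, a calcium-regulated carrier of ATP-magnesium and phosphate, was at 6.26, 9.34 and 9.86 FPKM in the WT libraries, against 14.7, 8.05 and 17.1 FPKM in the Rarres2-/- libraries. Replicates 4 and 6 were above all WT libraries and replicate 5 among them. The log2 difference was 0.55 (SE 0.295), unadjusted p = 0.105 by limma, and ran from 0.35 to 0.85 with 1 library left out. Its relative Slc25a23 was at 30.6 to 35.2 FPKM in the WT libraries, against 34.5 to 38.1 FPKM in the Rarres2-/- libraries. Another relative, Slc25a24, was at 2.93 FPKM in WT replicate 1 and 5.68 to 8.86 FPKM elsewhere. Progenitor and fibroblast markers were also lowest in that library, at a sum of 534 FPKM against 1099 to 2632 FPKM, and their part in the Slc25a24 level was not tested. Slc25a31, the testis form of the adenine nucleotide carrier, was at no more than 0.0888 FPKM, and Slc25a41 was listed at 0 in 5 libraries.

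Carriers of di- and tricarboxylates move citrate and dicarboxylates, and through them reducing equivalents, across the membrane. Slc25a1 (chromosome 16, 17925211 to 17928219) exports the citrate from which cytosolic acetyl-CoA is made. It was at 784, 841 and 525 FPKM in the WT libraries, against 406, 1185 and 1247 FPKM in the Rarres2-/- libraries. The means were 717 ± 169 and 946 ± 469 FPKM (SD, n = 3 each), with a log2 difference of 0.26 (SE 0.470) that was -0.02 without Rarres2-/- replicate 6 and 0.79 without replicate 4. The dicarboxylate carrier Slc25a10 (chromosome 11, 120491837 to 120501161) had the widest range over the libraries of all kept members on the log2(FPKM + 1) scale. It was at 152, 167 and 124 FPKM in the WT libraries, against 65.1, 205 and 263 FPKM in the Rarres2-/- libraries. Its log2 difference of 0.05 (SE 0.502) stands for libraries far on either side of WT, and it was below 0 with quantile normalization or with 1 of several libraries left out. Slc25a11, which exchanges oxoglutarate for malate in the malate-aspartate shuttle, was at 54.4, 55.4 and 56.0 FPKM in the WT libraries, against 42.8, 58.5 and 69.7 FPKM in the Rarres2-/- libraries. The tight WT values contrast with the spread of Rarres2-/- (SD 0.799 and 13.5 FPKM), and the log2 difference of 0.02 (SE 0.204) ran from -0.14 without replicate 6 to 0.21 without replicate 4. Slc25a21, a carrier of oxodicarboxylates, was at 0.153 to 0.382 FPKM.

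Enzymes that work with these carriers make cytosolic acetyl-CoA and NADPH from citrate and malate, or pass reducing equivalents through the malate-aspartate and glycerophosphate shuttles. The summed level of the citrate export enzymes was 798 FPKM in Rarres2-/- replicate 4, 1075 to 1589 FPKM over the WT libraries, and 2330 and 2741 FPKM in Rarres2-/- replicates 5 and 6. All 4 listed genes of citrate export and all 6 shuttle enzymes had differences above 0, where 48.6% of all tested genes did. The medians were 0.41 and 0.31, and 0 of the listed genes passed the test. How these differences move with 1 library left out is not given. Malic enzyme Me1, which makes NADPH for fatty acid synthesis, was at 385, 617 and 397 FPKM in the WT libraries, against 249, 1052 and 1267 FPKM in the Rarres2-/- libraries. Its replicate 4 was below and its replicates 5 and 6 were above WT. The aspartate aminotransferase gene Got2 was at 12.5 ± 2.27 FPKM over WT and 16.3 ± 1.09 FPKM over Rarres2-/- libraries (SD, n = 3 each), without overlap and with the highest value, 17.4 FPKM, in replicate 4. Its cytosolic partner Got1 was at 3.93 ± 1.10 and 5.62 ± 2.12 FPKM, with overlap and again with its highest value in replicate 4. The other shuttle enzymes listed, Mdh1, Mdh2, Gpd1 and Gpd2, were more abundant. Each had replicate 4 below and replicates 5 and 6 above all WT libraries, as 9.46% of all tested genes did. For Gpd1 the gap below WT was small, at 659 against 661 FPKM. The summed level of the shuttle enzymes was 1165 FPKM in Rarres2-/- replicate 4 and 1433 to 1845 FPKM over the WT libraries. It was 2518 and 2764 FPKM in Rarres2-/- replicates 5 and 6.

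Slc25a20 (chromosome 9, 108662136 to 108684642) carries acylcarnitines into the matrix for fatty acid oxidation. It was at 75.9, 73.4 and 97.1 FPKM in the WT libraries, against 77.4, 122 and 117 FPKM in the Rarres2-/- libraries. Rarres2-/- replicates 5 and 6 were above all WT libraries and replicate 4 was among them. The means were 82.1 ± 13.0 and 105 ± 24.2 FPKM (SD, n = 3 each). The log2 difference was 0.34 (SE 0.231), with an unadjusted p of 0.189 by limma, and it was 0.22 without replicate 5 and 0.54 without replicate 4. Of the carnitine shuttle enzymes that work beside it, Cpt2 was at 102 ± 1.22 FPKM in WT and 116 ± 24.0 FPKM without Rarres2. Its Rarres2-/- libraries, at 91.8, 115 and 140 FPKM, lay on both sides of the WT range of 101 to 103 FPKM. Cpt1b was at 14.2 ± 4.39 and 15.8 ± 2.59 FPKM (SD, n = 3 each, for both genes), with overlapping libraries. All 4 enzymes listed had differences above 0, against 48.6% of all tested genes, with a median of 0.12, and 0 passed.

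Carriers of other nucleotides and cofactors include those for coenzyme A, folate, pyrimidine nucleotides and S-adenosylmethionine. All 8 kept members had a difference above 0, from 0.10 to 0.48 with a median of 0.21, and 0 passed the test; those of Slc25a17, Slc25a32 and Slc25a33, among others, fell below 0 with 1 library left out, that of Slc25a42 with array weights, and those of Slc25a32 and Slc25a36 without WT replicate 1 and Rarres2-/- replicate 4. Slc25a16, linked to the coenzyme A supply of the matrix, was at 12.4, 22.0 and 21.8 FPKM in the WT libraries, against 22.9, 30.1 and 24.6 FPKM in the Rarres2-/- libraries. The lowest Rarres2-/- library lay just above the highest WT library, and WT replicate 1 lay far below the rest. The log2 difference was 0.48 (SE 0.246) and 0.22 without WT replicate 1, with an unadjusted p of 0.0940 by limma. Slc25a26, the S-adenosylmethionine carrier, was at 7.62, 8.27 and 8.41 FPKM in the WT libraries, against 8.49, 11.8 and 11.8 FPKM in the Rarres2-/- libraries. Replicate 4 was level with WT and replicates 5 and 6 were clearly higher, a log2 difference of 0.35 (SE 0.161) and an unadjusted p of 0.0687 by limma. Slc25a17, the carrier of peroxisomes, was at 27.4 to 45.6 FPKM in the WT libraries, against 28.0, 56.4 and 56.8 FPKM in the Rarres2-/- libraries. The pyrimidine nucleotide carriers Slc25a33 and Slc25a36 and the folate carrier Slc25a32 overlapped between genotypes. Slc25a42, which carries coenzyme A, was at 15.4 FPKM in Rarres2-/- replicate 4 and 7.29 to 10.7 FPKM in all other libraries.

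Amino acid carriers were divided, with 3 of 6 kept members above 0 and 3 below, and a median of -0.03. Slc25a29 (chromosome 12, 108825878 to 108835876), a carrier of basic amino acids, had the lowest difference of all kept members. It was at 6.83, 5.40 and 4.25 FPKM in the WT libraries, against 1.19, 4.48 and 4.02 FPKM in the Rarres2-/- libraries. The low mean rests largely on replicate 4, as the log2 difference was -0.71 (SE 0.367) with it and -0.29 without it. Its neighbour Slc25a47 (chromosome 12, 108849833 to 108856815) was at 2.92, 1.80 and 1.69 FPKM in the WT libraries, against 1.57, 1.06 and 2.03 FPKM in the Rarres2-/- libraries. Those groups overlapped, with a log2 difference of -0.29 (SE 0.226) that was -0.12 without WT replicate 1 and -0.15 without Rarres2-/- replicate 5. Slc25a12, the aspartate-glutamate carrier of the malate-aspartate shuttle, was at 3.29, 4.45 and 3.89 FPKM in the WT libraries, against 4.13, 3.44 and 1.95 FPKM in the Rarres2-/- libraries. Here replicate 6 was the lowest library, and the log2 difference of -0.26 (SE 0.232) was -0.03 without it and -0.42 without replicate 4. The second aspartate-glutamate carrier, Slc25a13, was at 0.183 to 0.692 FPKM. Slc25a44, the carrier of branched-chain amino acids known for its part in brown fat heat production, was at 22.9 to 32.2 FPKM in the WT libraries, against 26.6 to 36.8 FPKM in the Rarres2-/- libraries. Its replicates 5 and 6 were above all WT libraries and its replicate 4 among them, with a log2 difference of 0.27 (SE 0.197). The glutamate carrier Slc25a22, the ornithine carrier Slc25a15 and the glycine carrier Slc25a38 had differences of 0.15, 0.07 and -0.13 with overlapping libraries. The second glutamate carrier, Slc25a18, and the second ornithine carrier, Slc25a2, were listed at 0 in 2 and 3 libraries.

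Mitoferrins bring iron into the matrix for heme and iron-sulfur clusters, and Slc25a39 and Slc25a40 carry glutathione. Slc25a39 (chromosome 11, 102402969 to 102408675) was at 159, 151 and 154 FPKM in the WT libraries, against 105, 175 and 212 FPKM in the Rarres2-/- libraries. WT was tight (SD 3.78 FPKM) and Rarres2-/- wide (SD 54.6 FPKM), and the log2 difference of 0.02 (SE 0.274) ran from -0.19 without replicate 6 to 0.31 without replicate 4. The far less abundant Slc25a40 (chromosome 5, 8422730 to 8454839) was at 2.06, 2.53 and 1.99 FPKM in the WT libraries, against 2.73, 3.17 and 3.38 FPKM in the Rarres2-/- libraries. Its groups did not overlap, and replicate 4 was not set apart. The log2 difference was 0.36 (SE 0.149), unadjusted p = 0.0478 and adjusted p = 0.999 by limma, and it ran from 0.31 to 0.43 with 1 library left out. Mitoferrin-1, Slc25a37, which is known from red cell precursors, was at 4.42, 3.50 and 3.95 FPKM in the WT libraries, against 4.20, 3.03 and 2.60 FPKM in the Rarres2-/- libraries. The log2 difference was -0.23 (SE 0.181), and it was -0.11 without replicate 6 and -0.38 without replicate 4. Erythroid markers overlapped between genotypes, at sums of 580 to 891 FPKM in the WT libraries, against 486 to 865 FPKM in the Rarres2-/- libraries, and their part in the Slc25a37 level was not tested. Mitoferrin-2, Slc25a28, was the more abundant form in each library, at 23.8 to 32.4 FPKM.

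Slc25a14 and Slc25a30, named for their likeness to the uncoupling proteins, were low. Slc25a30 was at 1.44, 3.09 and 3.27 FPKM in the WT libraries, against 6.83, 3.77 and 1.36 FPKM in the Rarres2-/- libraries, with the highest and the lowest value both in Rarres2-/-. Its log2 difference of 0.35 (SE 0.450) was -0.06 without replicate 4. Slc25a14 was at 2.01 to 2.56 FPKM in all 6 libraries, and Slc25a27, the brain uncoupling protein relative, had a mean of 0.461 FPKM. Of 5 family members with other symbols, Ucp1 was at 43.1, 46.6 and 56.1 FPKM in the WT libraries, against 61.5, 62.8 and 74.6 FPKM in the Rarres2-/- libraries, and Ucp3 at 12.9 ± 2.87 and 27.6 ± 7.11 FPKM (SD, n = 3 each). Both lay higher in all 3 Rarres2-/- libraries, replicate 4 included, with log2 differences of 0.44 (SE 0.170) and 1.03 (SE 0.239), and neither passed the adjusted test by limma. Over all tested genes, 5.81% lay fully higher in Rarres2-/- and 4.53% fully lower. Ucp2, Mtch1 and Mtch2 overlapped between genotypes, and of these only Mtch2 had the split described above. Its replicate 4 measured 69.7 FPKM, below a WT range of 115 to 132 FPKM. Its replicates 5 and 6 measured 174 and 180 FPKM, above that range. Of 7 brown and beige adipocyte markers, Ucp1 among them, 4 had a difference above 0 and 3 below, and 3 did not overlap between genotypes. The 3 without overlap were Ucp1, Dio2 (0.54) and Otop1 (0.76), all higher in Rarres2-/-. Cidea (-0.03), Cox7a1 (-0.22) and Cox8b (-0.28) were those below 0, and Elovl3 (0.18) overlapped. Cox7a1 was at 60.9, 198 and 346 FPKM in Rarres2-/- replicates 4, 5 and 6, against 149 to 266 FPKM in WT. Cox8b was at 454, 1010 and 1419 FPKM in the same Rarres2-/- libraries, against 1022 to 1123 FPKM in WT.

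The last group held carriers of the outer membrane or of little known function. Slc25a48 (chromosome 13, 56437960 to 56472367), for which a role in choline transport has been described, was at 0.416, 1.07 and 1.05 FPKM in the WT libraries, against 3.02, 1.73 and 1.40 FPKM in the Rarres2-/- libraries. Its difference was the highest of the kept members in this fit (that of Slc25a29 was as large in the other direction). It was 0.71 (SE 0.263) on the log2(FPKM + 1) scale, which understates the change of so low a gene, with an unadjusted p of 0.0315 and an adjusted p of 0.999 by limma. The highest value was again in replicate 4, and the difference was 0.49 to 0.86 with 1 library left out. Slc25a45 was at 4.68, 4.25 and 3.87 FPKM in the WT libraries, against 4.50, 2.80 and 3.21 FPKM in the Rarres2-/- libraries. Replicates 5 and 6 were below all WT libraries and replicate 4 among them, with a log2 difference of -0.24 (SE 0.177) that was -0.39 without replicate 4 and -0.13 without replicate 5. Slc25a35 was at 25.5 to 32.1 FPKM in the WT libraries, against 18.8, 35.5 and 53.8 FPKM in the Rarres2-/- libraries, with replicate 4 below and replicates 5 and 6 above WT. Slc25a46, an outer membrane protein that acts in mitochondrial dynamics, was at 14.7 to 21.6 FPKM in the WT libraries, against 18.7 to 27.8 FPKM in the Rarres2-/- libraries. Slc25a34 and Slc25a43 had means of 0.427 and 0.147 FPKM.

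**Figure D4:**
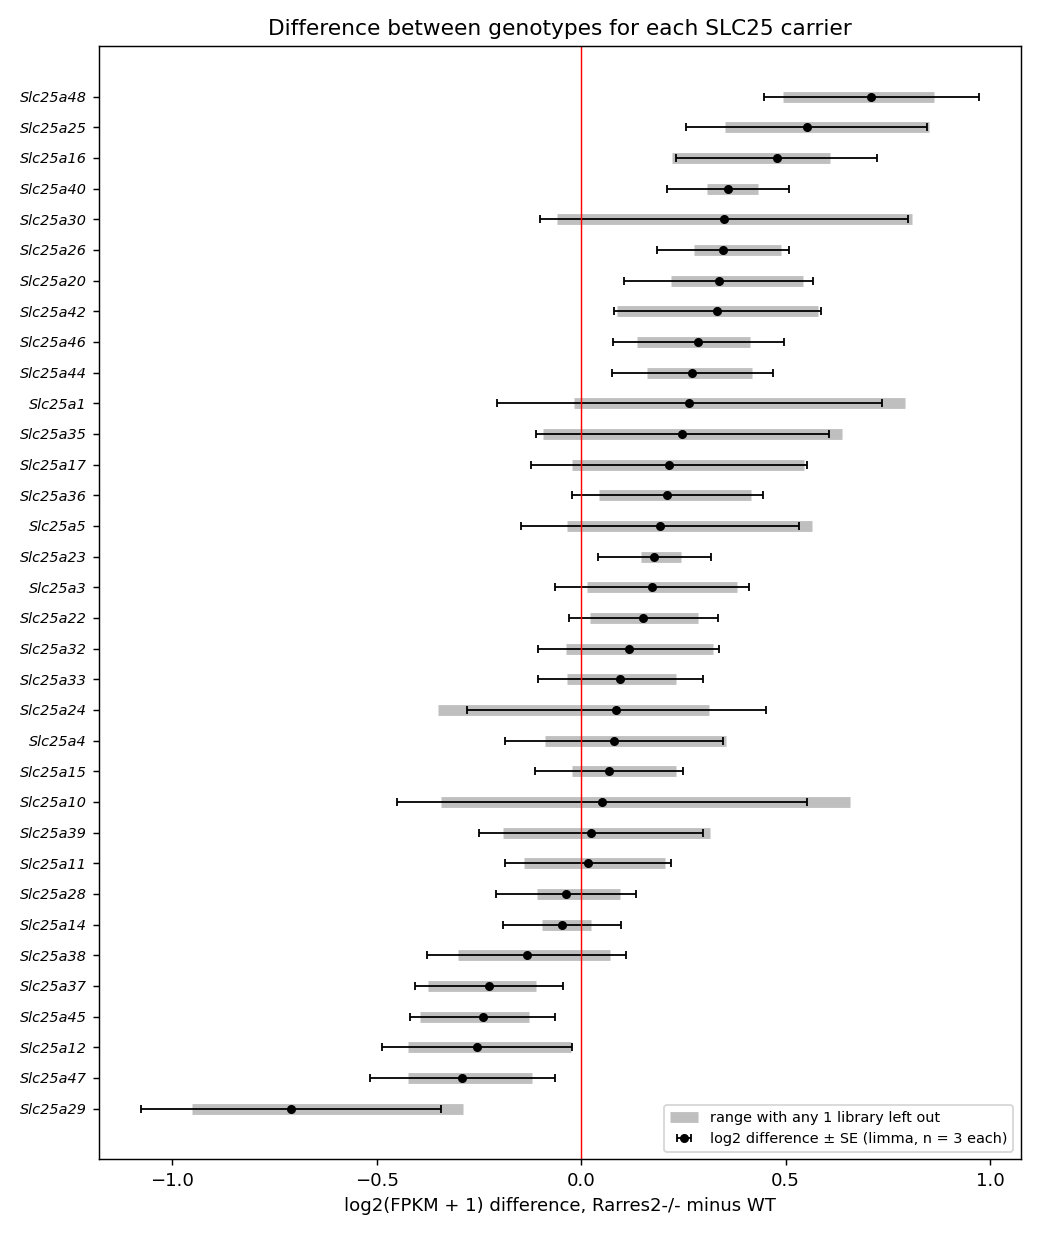
Log2(FPKM + 1) difference, Rarres2-/- minus WT, of 34 kept carriers with its SE (limma, 3 libraries per genotype), over the range found when any 1 library was left out (grey). The differences run from -0.71 for Slc25a29 to 0.71 for Slc25a48, and the grey range crosses 0 for 16 of 34 genes.

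Other genes of mitochondrial transport, from lists chosen beside the family, gave 0 calls by limma as well. New carriers reach the inner membrane through the TIM22 pathway. Of its 12 tested genes, 7 were above 0 and 5 below, with a median difference of 0.07. Their median log2 deviation from the mean of the 6 libraries was -0.50 in Rarres2-/- replicate 4 and 0.28 in replicates 5 and 6. In the WT libraries it lay between -0.038 and -0.0035. Tomm70a, the receptor that takes up carrier precursors, was at 24.5 ± 3.92 FPKM in the WT libraries, against 30.6 ± 5.12 FPKM in the Rarres2-/- libraries, and Tomm20 at 29.2 ± 1.45 and 33.1 ± 6.22 FPKM (SD, n = 3 each). The outer membrane channel Vdac1 was at 128, 146 and 151 FPKM in the WT libraries, against 121, 204 and 228 FPKM in the Rarres2-/- libraries, with replicate 4 below and replicates 5 and 6 above WT. Vdac2 had the same split, at 110 to 125 FPKM in the WT libraries, against 91.0, 137 and 155 FPKM in the Rarres2-/- libraries. Tomm20 had it too, at 28.0 to 30.8 FPKM in the WT libraries, against 26.7, 39.1 and 33.6 FPKM in the Rarres2-/- libraries. Of 5 tested genes of the list of pyruvate carriers and sideroflexins, 2 were above 0 and 3 below, with Sfxn5 at 8.93 ± 0.741 and 11.5 ± 2.02 FPKM and Sfxn2 at 9.76 ± 3.96 and 7.77 ± 1.80 FPKM in WT and Rarres2-/-. Of the calcium uniporter list, Ccdc109b and Letm1 overlapped between genotypes.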

How the data were processed

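RNA-seq values of 6 libraries (3 WT, 3 Rarres2-/-) were deposited by the authors as FPKM per gene, 1 table per library, per the file headers. For WT replicate 3 the value column is headed by a sample name, with no unit. It was read as FPKM from its scale (median of tested genes 9.23, and 9.05 to 9.37 in the others). Per the submitters' processing notes, Bowtie and the mm10 build were used; what computed FPKM, with which annotation and strand setting, is not stated. Unnamed rows (737, 0.793% to 4.91% of summed values) were left out.

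Genes whose 6 libraries averaged 1 FPKM or more were tested on log2(FPKM + 1) with limma 3.58.1 in R 4.3.3 (eBayes with trend, two-sided, Benjamini-Hochberg over 11086 genes, threshold 0.05), with genotype as the only term. The script was tested on simulated data. Carriers with library values are the 8 most abundant, the 5 of lowest p on either side of 0, those without overlap and an absolute difference of at least 0.5, and the 3 with the widest range within a genotype; values of other members are given by range or in part. Of each other list, up to 2 genes with the smallest p were named by rule, and some further genes beside them. Members, lists and alternatives were chosen with earlier results of these data known. Coordinates are RefSeq's on GRCm38, and transcript lengths are GENCODE M21's longest per symbol. FPKM keeps no counts, so counting intervals cannot be given. Values of 1 kept member and 2 genes of other lists are not reported here, though they count in the totals.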

Additional observations from a re-analysis of the deposited data

How the results depend on the processing

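No paired analysis was possible because library numbers are not shared between the genotypes. The limits are 3 libraries a genotype, unknown absolute depth, and libraries that differ widely within Rarres2-/-. Of 35 carriers, 15 kept their direction under each alternative that could be run on them (10 higher and 5 lower in Rarres2-/-), and 20 reversed in at least 1; no reason for a reversal was tested. The count of all genes called, 0 in the reported fit, was 1 at an adjusted p under 0.1, with upper-quartile scaling, when the 20 most abundant genes were kept out of the scaling factor and with 5 FPKM required in 3 libraries (26 carriers tested). It was 0 to 1 with any 1 library left out, 68 without WT replicate 1 and Rarres2-/- replicate 4, and 1524 with array weights. Array weights, whose estimation stopped before it converged, gave Rarres2-/- replicate 5 a weight of 6.19 and replicate 4 one of 0.179. That fit called 5 carriers (14.3% of 35, against 13.7% of all genes): Slc25a16 (0.43), Slc25a20 (0.52), Slc25a26 (0.45) and Slc25a40 (0.35) higher and Slc25a45 (-0.39) lower, with adjusted p of 0.0210 to 0.0498 by limma. No carrier was called in the other fits. The carriers' median difference ran from -0.02 to 0.26 over all fits, and it was 0.12 with length trends removed, chosen after seeing the data.

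Reversed log2 differences were as follows. Quantile normalization gave -0.044 for Slc25a10, -0.065 for Slc25a39, -0.036 for Slc25a11. Array weights gave -0.081 for Slc25a25, -0.0093 for Slc25a42, 0.19 for Slc25a38, -0.14 for Slc25a24, 0.082 for Slc25a28. Without WT replicate 1 and Rarres2-/- replicate 4 the values were -0.10 for Slc25a36, -0.32 for Slc25a30, 0.25 for Slc25a38, -0.028 for Slc25a32, -0.34 for Slc25a24, 0.16 for Slc25a28. With any 1 library left out, values ran from -0.023 to 0.55 for Slc25a17, -0.30 to 0.071 for Slc25a38, -0.037 to 0.32 for Slc25a32, -0.022 to 0.23 for Slc25a15, -0.35 to 0.31 for Slc25a24, -0.11 to 0.096 for Slc25a28. They also ran from -0.034 to 0.23 for Slc25a33, -0.096 to 0.025 for Slc25a14, -0.34 to 0.66 for Slc25a10, -0.058 to 0.81 for Slc25a30, -0.088 to 0.36 for Slc25a4, and from -0.19 to 0.31 for Slc25a39, -0.14 to 0.21 for Slc25a11, -0.094 to 0.64 for Slc25a35, -0.035 to 0.56 for Slc25a5, -0.017 to 0.79 for Slc25a1.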
